A study of Mus musculus with 13 samples.

Results

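Mirtrons and other miRNAs that are made without Drosha were examined in thymic iNKT cells of WT and *Tet2/3* DKO mice. Members were taken by name. They were 7 of the 1127 hairpins of the precursor table and 14 of the 1297 sequences of the mature table. The mirtrons were mmu-mir-877, mmu-mir-1981, mmu-mir-702 and mmu-mir-3102 (4 hairpins, 10 mature sequences). The capped or snoRNA-derived miRNAs were mmu-mir-320, mmu-mir-484 and mmu-mir-1839 (3 hairpins, 4 mature sequences). The species prefix is left out from here on. The study asked how the loss of TET2 and TET3, enzymes that oxidise methylated cytosine, bears on *Drosha* and on the miRNAs of iNKT cells.

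The data are small RNA-seq libraries of live TCRβ+ tetramer+ iNKT cells sorted from the thymus of 6 C57BL/6 control (WT) mice and 7 Tet2-/-Tet3flx/flx mice that carry CD4 cre (*Tet2/3* DKO), all 21 to 25 days old. *Tet2* is absent in the whole animal, whereas *Tet3* is deleted by a Cre that the *Cd4* promoter drives, that is in T cells from the CD4-expressing thymocyte stage on. Each mouse gave 1 library, so the replicates are separate animals, and each genotype held males and females. Precursor tables summed to 469117 to 1110226 counts for WT mice and 728653 to 1910526 for *Tet2/3* DKO mice, and mature tables to 1110852 to 2582057 and 1837631 to 4361963.

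In the canonical pathway, the nuclear enzyme Drosha and its partner DGCR8 cut a hairpin out of a long primary transcript, and Dicer then cuts the hairpin into a duplex of about the length of a mature miRNA. A mirtron skips the first cut, because the spliceosome releases a short intron that folds into a hairpin after debranching. mir-320 and mir-484 are known for transcripts that start at the hairpin itself and carry a 5′ cap, and mir-1839 lies in a small Cajal body RNA (scaRNA, a relative of snoRNAs), the product of which Dicer can cut. The cut by Drosha is thus not needed for these miRNAs.

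The annotated positions of some hairpins reflect their class, most plainly those of Mir877 and Mir1981. Of the 7 hairpins, 5 had an entry in the RefSeq table of build GRCm38.p6, and their sequences are printed 5′ to 3′. The ends of Mir877 and Mir1981 are those of an intron. For the mirtrons the capitals mark the first and last dinucleotide of the host intron that lies inside the hairpin.
Mir877: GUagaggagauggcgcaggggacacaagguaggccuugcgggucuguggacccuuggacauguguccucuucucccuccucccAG
Mir1981: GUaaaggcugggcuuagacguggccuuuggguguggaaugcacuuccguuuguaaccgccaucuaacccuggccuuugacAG
Mir702: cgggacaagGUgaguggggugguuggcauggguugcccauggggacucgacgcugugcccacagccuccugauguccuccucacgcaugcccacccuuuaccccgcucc
For the capped and the scaRNA-derived hairpin the capitals mark the mature arm in that table.
Mir484: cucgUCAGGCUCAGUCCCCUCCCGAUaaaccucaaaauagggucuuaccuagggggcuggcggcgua
Mir1839: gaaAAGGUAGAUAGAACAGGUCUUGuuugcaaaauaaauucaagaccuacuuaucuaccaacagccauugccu

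Mir877 (chr17:35960730-35960814, minus strand) filled an 85-base intron of *Abcf1*, which encodes an ABC-family factor of translation, from its first base to its last. Mir1981 (chr1:184822407-184822488, minus strand) filled an 82-base intron of *Marc2*, which encodes a mitochondrial reductase, in the same way. Both thus begin with GU and end with AG, the dinucleotides of splice sites. Both ends on intron ends was a property of 16 of the 1005 RefSeq hairpins (1.59%). Mir702 (chr5:136991433-136991541, plus strand) was offset against its intron of *Plod3*, a collagen-modifying enzyme. It started 9 bases before the 102-base intron, in the exon, and stopped 2 bases before its end. For mir-3102 the 4 mature sequences (chr7:100882307-100882409, minus strand) lay in a 104-base intron of *Arhgef17*. They began on its first base and stopped 1 base before its last, and in 1 of 3 transcripts an exon overlaps them.

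**Figure D1:**
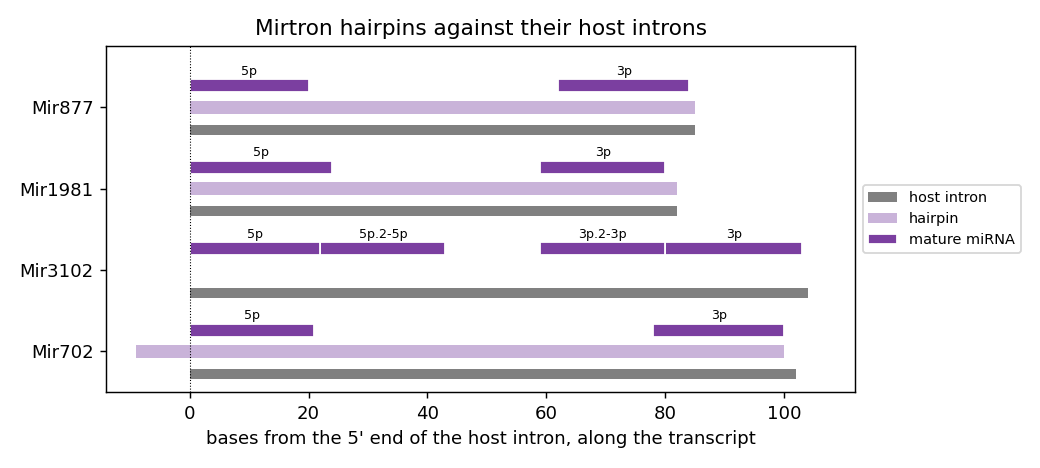
Position of the mirtron hairpins (light purple) and their mature miRNAs (dark purple) against the host intron (grey), in bases from the intron's 5′ end. Mir877 and Mir1981 cover their 85-base and 82-base introns from end to end, Mir702 starts 9 bases before its 102-base intron, and only mature sequences are drawn for Mir3102.

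Mir484 (chr16:14159626-14159692, plus strand) overlapped no other gene of its own strand. It lay inside *Marf1* on the opposite strand, 359 bases from a start of that gene. Mir1839 (chr7:81529916-81529988, plus strand) shared 66 of its 73 bases with an annotated scaRNA (81529855 to 81529981), which lies in an intron of the lincRNA 2900076A07Rik (in 1 of its 3 transcripts an exon overlaps the hairpin). Fragments of this scaRNA and reads of the hairpin cannot be told apart over these bases. Base composition split the members, with 61.2% G and C in Mir877, 53.7% in Mir1981, 65.1% in Mir702, 58.2% in Mir484 and 37.0% in Mir1839, where the median RefSeq hairpin had 51.7%.

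The mature arms are printed with the seed (bases 2 to 8), the stretch that pairs with targets, in capitals, for the mature members that have a RefSeq entry, leaving out the inner pair of mir-3102.
miR-484: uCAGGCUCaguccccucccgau
miR-1839-5p: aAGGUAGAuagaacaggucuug
miR-877-5p: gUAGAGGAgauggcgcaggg
miR-877-3p: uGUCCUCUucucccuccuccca
miR-1981-5p: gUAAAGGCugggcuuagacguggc
miR-1981-3p: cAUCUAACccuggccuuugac
miR-702-5p: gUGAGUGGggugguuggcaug
miR-3102-5p: gUGAGUGGccaggguggggcug
miR-702-3p: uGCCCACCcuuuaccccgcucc
miR-3102-3p: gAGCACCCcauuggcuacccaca
The seed UGAGUGG was shared by miR-702-5p and miR-3102-5p, each of which starts at the 5′ splice site of its intron. No other mature entry of the RefSeq table (1738 in all) had the seed of any of the other 8 sequences printed, and none was identical to a member.

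Reads counted on a hairpin are reads assigned to that sequence, not intact precursors, and the tables do not show which part of the hairpin a read covered. Levels are CPM, counts scaled to the TMM-corrected library size. A fold change thus sets a miRNA against the rest of its library and is not an amount per cell, and in bulk samples a change in the mix of cells and a change of RNA per cell cannot be told apart. A miRNA was called when the adjusted p-value of edgeR's quasi-likelihood test was under 0.05.

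Of the 7 member hairpins 5 had enough counts to be tested, and mir-484 and mir-1839 fell, mir-1981 rose, and mir-320 and mir-877 did not pass the test. The mir-1839 call was lost in 13 of 22 alternatives and its sign changed in 1 more, with library size only. That is 2 of 5 lower and 1 of 5 higher, where of the 350 tested hairpins 59.7% were called, 27.1% lower and 32.6% higher. The median log2 fold change of the 5 was -0.27, beside 0.02 for all tested hairpins. Of the 14 mature members 7 were tested, and miR-484 and miR-320-3p fell, miR-877-5p rose, and the other 4 did not pass. Over all 401 tested mature miRNAs 55.6% were called, 27.4% lower and 28.2% higher. The median over the 7 was 0.24, beside -0.01 for all. No tested member passed the study's second threshold, an absolute log2 fold change above 2, which 8.29% of tested hairpins and 11.2% of tested mature miRNAs passed together with the first.

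The library measures that moved with genotype stand beside these counts. WT libraries were on the whole shallower, with overlapping totals, and TMM factors of the hairpin table ran from 0.812 to 0.928 for WT and from 1.06 to 1.20 for *Tet2/3* DKO. With library size in their place, the median log2 fold change moved up by 0.34 for hairpins and by 0.25 for mature miRNAs. Of all calls among hairpins 45.5% were to lower levels with TMM, 27.1% with library size only and 59.6% with upper-quartile scaling, and among mature miRNAs 49.3%, 35.2% and 59.7%. The hairpins that mark the T lineage and blood cells (mir-142a, mir-150, mir-155, mir-181a-1 and mir-181a-2) summed to 176248 to 207755 CPM for WT mice, against 165303 to 225614 CPM for *Tet2/3* DKO mice, and 5 of 5 were called, 2 lower and 3 higher (log2 fold changes from -1.28 to 0.89). Markers of other cells were lower in *Tet2/3* DKO for red cells (2 of 2 tested of 3 listed, sum 462.8 to 1239 CPM in WT and 93.2 to 343.6 in *Tet2/3* DKO), for mesenchymal stroma (3 of 3 tested of 5 listed, 49.4 to 138.5 and 8.90 to 30.7 CPM) and for the myeloid marker mir-223 (20.1 to 310.4 and 0 to 19.2 CPM). The hepatocyte marker mir-122 had too few counts to be tested, with 4.25 to 22.8 CPM in WT and a lower 0 to 2.99 CPM in *Tet2/3* DKO. Neither the 5 tested of 7 epithelial markers nor the endothelial marker mir-126a passed the test. The part of these cells in the results for the members was not tested.

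The capped mir-484 was lower in *Tet2/3* DKO, with the smallest p-value among the tested members. Its hairpin was at 1566 CPM in the lowest WT mouse, 1832 in the median and 2360 in the highest, and at 785.4, 958.6 and 1235 CPM in *Tet2/3* DKO. No *Tet2/3* DKO mouse reached the lowest WT mouse. Genotypes were apart in this way for 32% of tested hairpins, 14% with *Tet2/3* DKO below and 18% above. The log2 fold change was -0.89 (SE 0.121, edgeR adjusted p = 5.77e-06), a level of 0.538 times that in WT.

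Mature miR-484 was lower as well, with 1157, 1359 and 1904 CPM (lowest, median and highest) in WT and 600.8, 790.0 and 1008 CPM in *Tet2/3* DKO. Here too the genotypes were apart, which held for 27.2% of tested mature miRNAs (14.5% with *Tet2/3* DKO below, 12.7% above). The log2 fold change was -0.83 (SE 0.138, edgeR adjusted p = 3.22e-05), and the value stayed below 0 and past the threshold in all 22 alternatives for hairpin and mature sequence alike (hairpin from -1.14 to -0.55, mature from -0.997 to -0.60).

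For mir-320, the other capped miRNA, hairpin and mature sequence gave different calls. Mature miR-320-3p had 373.4, 440.7 and 482.6 CPM (lowest, median and highest) in WT and 190.3, 301.6 and 342.2 CPM in *Tet2/3* DKO. Again no *Tet2/3* DKO mouse reached the lowest WT mouse. The log2 fold change was -0.62 (SE 0.140, edgeR adjusted p = 0.000753), and it was past the threshold in all 22 alternatives.

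The mir-320 hairpin ranged from 1277 to 1980 CPM in WT (median 1611) and from 1044 to 1787 CPM in *Tet2/3* DKO (median 1242). The genotypes overlapped, with *Tet2/3* DKO replicate 7 above 5 of the 6 WT mice. The difference of -0.29 (SE 0.125) missed the threshold with an edgeR adjusted p of 0.0530. It passed with RLE scaling (-0.40) and upper-quartile scaling (-0.53), with DESeq2 (-0.36) and with limma-voom (-0.34), and without WT replicate 3 (-0.31), *Tet2/3* DKO replicate 5 (-0.32) or *Tet2/3* DKO replicate 7 (-0.38). With library size only it was 0.06, which is 0.30 below the median hairpin under that scaling.

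The scaRNA-derived mir-1839 had values of opposite sign in the 2 tables, of which the one for the hairpin passed the test. Its hairpin ranged from 976.7 to 1381 CPM in WT (median 1091) and from 783.1 to 1147 CPM in *Tet2/3* DKO (median 911.6). The groups overlapped and the difference was small. Its log2 fold change of -0.27 (SE 0.113) had an edgeR adjusted p of 0.0483, just inside the threshold. It was past it in 3 of the 13 fits that each left out 1 mouse (without WT replicate 1, *Tet2/3* DKO replicate 2 or *Tet2/3* DKO replicate 5, over all 13 from -0.33 to -0.18). With library size only it was 0.08, which is 0.28 below the median hairpin under that scaling.

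Mature miR-1839-5p, which holds nearly all mature reads of this hairpin, was at 438.8 to 616.7 CPM in WT (median 502.9) and at 476.2 to 666.9 CPM in *Tet2/3* DKO (median 653.1). In *Tet2/3* DKO 4 of 7 mice were above the highest WT mouse. Its log2 fold change of 0.24 (95% interval -0.02 to 0.51) missed the threshold (edgeR adjusted p = 0.0952), but it passed with library size only (0.48). The 3p arm had between 1 and 33 counts per library and a log2 fold change of 0.35 (95% interval -0.57 to 1.26).

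**Figure D2:**
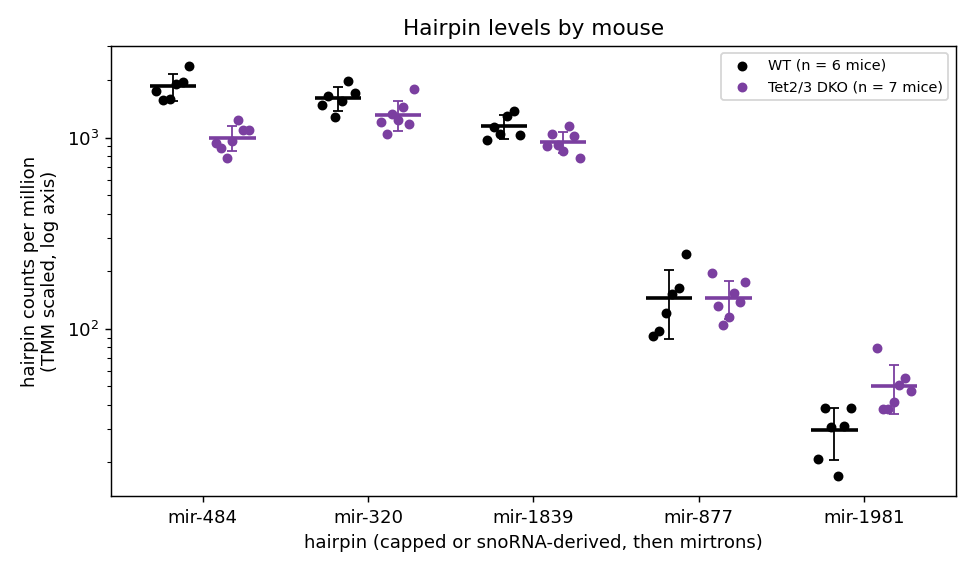
Levels of the 5 tested member hairpins in CPM on a log axis, 1 point per mouse, with the mean (wide bar) and SD. WT (n = 6) is black and *Tet2/3* DKO (n = 7) purple. The mir-484 points do not overlap (785.4 to 1235 CPM in *Tet2/3* DKO and 1566 to 2360 in WT), while those of the other hairpins do.

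The mirtrons were less abundant. Of their 2 tested hairpins 0 were lower and 1 was higher, and of their 3 tested mature sequences also 0 and 1, where 27.1% and 27.4% of all were lower, so these counts do not set the mirtrons apart. Summed over the 4 mirtron hairpins, levels were 140.5 to 285.5 CPM for WT mice and 151.3 to 275.7 CPM for *Tet2/3* DKO mice. The 3 capped or snoRNA-derived hairpins together had 3911 to 5327 CPM for WT mice, against 2972 to 3827 CPM for *Tet2/3* DKO mice. These TMM-scaled sums were apart, though of the 3 hairpins only mir-484 was. For all 7 member hairpins the TMM-scaled sums were apart too (4067 to 5521 CPM for WT and 3144 to 4040 CPM for *Tet2/3* DKO). As shares of unscaled library totals the same 7 hairpins overlapped, at 0.377% to 0.471% for WT and 0.342% to 0.451% for *Tet2/3* DKO. A difference between the classes was not tested, since the classes were formed by name from few members.

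mir-877 is the mirtron of *Abcf1*. Its hairpin had 92.1, 136.8 and 247.0 CPM (lowest, median and highest) in WT and 105.2, 137.6 and 194.8 CPM in *Tet2/3* DKO. The WT mice enclosed the *Tet2/3* DKO mice. Its log2 fold change was -0.02 (95% interval -0.49 to 0.46, edgeR adjusted p = 0.945), which leaves room for differences of either sign.

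Mature miR-877-5p had 11.2, 19.6 and 36.9 CPM (lowest, median and highest) in WT and 28.9, 46.2 and 55.5 CPM in *Tet2/3* DKO. Of the 6 WT mice 4 were below all *Tet2/3* DKO mice. Its log2 fold change was 0.87 (SE 0.274, edgeR adjusted p = 0.00995), a level of 1.83 times that in WT, and all 22 alternatives called it (from 0.65 to 1.09). It rests on 22 to 58 counts per WT library. miR-877-3p had at most 22 counts in a WT library and 17 to 65 in *Tet2/3* DKO, and its log2 fold change of 0.40 (95% interval -0.66 to 1.47) did not pass the test.

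mir-1981, the mirtron of *Marc2*, differed from mir-877 in that its hairpin, not its arm, passed the test. Its hairpin was at 17.0, 30.9 and 38.5 CPM (lowest, median and highest) in WT and at 37.9, 47.2 and 79.2 CPM in *Tet2/3* DKO. Only the 2 lowest *Tet2/3* DKO mice fell below the highest WT mouse. Its log2 fold change was 0.77 (SE 0.260, edgeR adjusted p = 0.0167), from 9 to 30 counts per WT library. The call was kept in 12 of the 13 fits that each left out 1 mouse (over all 13 from 0.62 to 0.91). It was lost without *Tet2/3* DKO replicate 1, where the value was 0.62 with an adjusted p of 0.0507. With upper-quartile scaling the value was 0.53 with an adjusted p of 0.0952 (edgeR's quasi-likelihood test in each case).

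Mature miR-1981-5p had 177.5 to 268.1 CPM in WT (median 199.5) and 158.9 to 277.1 CPM in *Tet2/3* DKO (median 203.8). The ranges were nearly the same, and the log2 fold change was -0.01 (95% interval -0.34 to 0.32, edgeR adjusted p = 0.965). miR-1981-3p did not pass the count filter over all 13 libraries, with 60 counts summed over WT and 64 over the deeper *Tet2/3* DKO libraries. Without a count filter its log2 fold change was -1.10 with an adjusted p of 0.193. It passed the filter without WT replicate 1 (-1.36, adjusted p = 0.0543), WT replicate 3 (-1.42, adjusted p = 0.05001) or WT replicate 6 (-1.34, adjusted p = 0.0740), and missed the threshold each time (edgeR's quasi-likelihood test).

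mir-702 and mir-3102 stayed near the detection limit, and neither their hairpins nor any of their 6 mature sequences was tested. The mir-702 hairpin had 3 counts in 1 of 6 WT libraries and 19 counts over 4 of 7 *Tet2/3* DKO libraries, and the mir-3102 hairpin had 22 and 30 counts in all. miR-702-3p had 3 counts in 1 WT library, but at least 1 count in each of the 7 *Tet2/3* DKO libraries (29 in all, at most 11). miR-3102-3p had 4 counts over 2 WT libraries and 55 over all 7 *Tet2/3* DKO libraries, from 1 to 13 in each. When all sequences with a count were fitted, edgeR gave miR-3102-3p a log2 fold change of 2.43 with an SE of 1.06 (adjusted p = 0.0871). For miR-702-3p edgeR gave 2.01 with an SE of 1.30 (adjusted p = 0.270). DESeq2 gave 2.55 for miR-3102-3p (adjusted p = 0.0582) and 2.01 for miR-702-3p (adjusted p = 0.255). None of these values passed the threshold, and the *Tet2/3* DKO libraries were on the whole deeper. The arms miR-702-5p, miR-3102-5p and miR-3102-5p.2-5p had 0 counts in WT and 2, 6 and 5 in *Tet2/3* DKO, and miR-3102-3p.2-3p had 4 and 13.

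**Figure D3:**
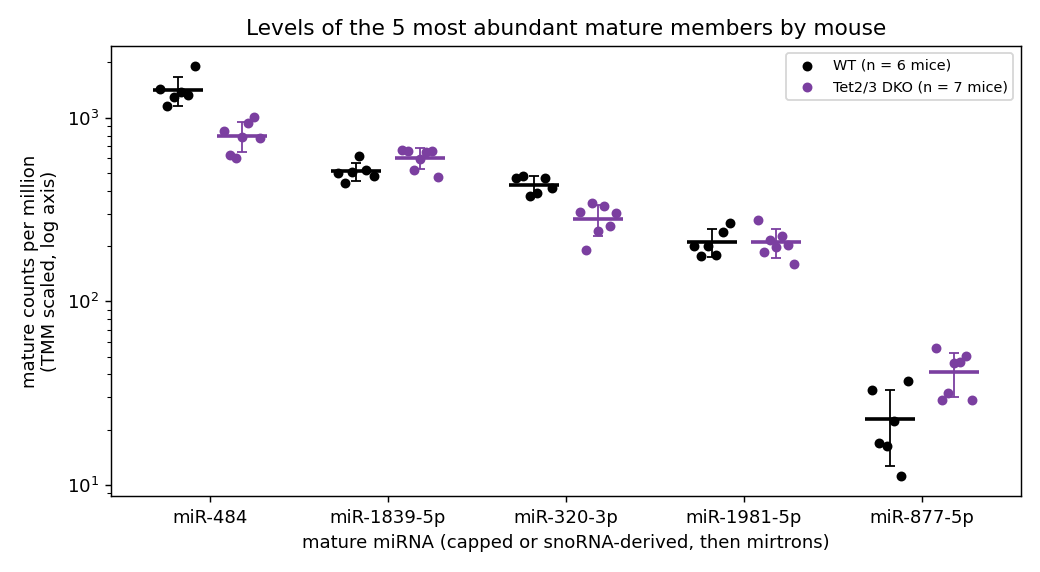
Levels of the 5 most abundant mature members in CPM on a log axis, 1 point per mouse, with the mean (wide bar) and SD. WT (n = 6) is black and *Tet2/3* DKO (n = 7) purple. The genotypes are apart for miR-484 and miR-320-3p, overlap for miR-1839-5p and miR-1981-5p, and for miR-877-5p 4 of 6 WT mice lie below all *Tet2/3* DKO mice.

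Mature members with a RefSeq entry are 20 to 24 bases long, so levels of mature sequences were set beside each other without a length correction. In WT the order was miR-484 (1418 ± 256 CPM, SD, n = 6), miR-1839-5p (510.7 ± 59.0), miR-320-3p (432.6 ± 46.4), miR-1981-5p (210.7 ± 35.8) and miR-877-5p (22.8 ± 10.1). Of these neighbours, miR-1839-5p and miR-320-3p overlapped in range and the others did not. In *Tet2/3* DKO the order of means was the same, with 797.9 ± 150 CPM (SD, n = 7) for miR-484, 603.3 ± 77.4 for miR-1839-5p, 281.9 ± 54.4 for miR-320-3p, 209.5 ± 37.0 for miR-1981-5p and 41.2 ± 11.1 for miR-877-5p. There miR-484 overlapped with miR-1839-5p, and miR-320-3p with miR-1981-5p. By mean level miR-484 ranked 60 of 1297 mature sequences in WT and 75 in *Tet2/3* DKO, and the 14 members together held between 0.188% and 0.292% of the counts of a library.

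The 5p arm held most counts of miR-877, miR-1981 and miR-1839, whereas the few counts of miR-702 were mostly on the 3p arm. For miR-877 it held between 50% and 100% of the counts of both arms in a WT library (median 78.9%), against 76.3% to 92.8% for *Tet2/3* DKO (median 81.5%). For miR-1981 the medians were 98.4% and 99.4%, and for miR-1839 they were 99.2% and 99.0%. The log2 ratio of 5p to 3p counts was tested for the 98 miRNAs with both arms tested, of which 16.3% changed, 8.16% to a lower and 8.16% to a higher ratio. The difference was 0.16 for miR-877 (adjusted p = 0.905) and -0.22 for miR-1839 (adjusted p = 0.776, exact permutation tests with n = 6 and 7), and both changed sign when single libraries were left out. The share of 100% in WT replicate 1 rests on 35 counts of the 5p and 0 of the 3p arm.

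Hairpin and mature tables of the same libraries gave different changes for several members, so the ratio itself was compared. By the pipeline's documented design, hairpin reads are those left after alignment to mature sequences. The ratio is therefore not one of precursor to product. In WT there were 294.7 hairpin reads for 100 reads of the 5p arm of mir-877, 160.5 for mir-320 (3p arm), 94.9 for mir-1839 (5p arm), 55.9 for mir-484 and 5.85 for mir-1981 (5p arm). The median over 284 hairpins with a tested arm was 41.1. The 2 best measured mirtrons thus lay at different ends of this scale, mir-877 above 88.0% and mir-1981 above 10.2% of these hairpins.

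The log2 ratios that follow use CPM scaled within each table, so they are on another scale than the read ratios in WT given before. In *Tet2/3* DKO the ratio was lower for mir-1839. The log2 ratio of hairpin CPM to 5p arm CPM ran from 0.96 to 1.41 for WT (median 1.09) and from 0.44 to 0.82 for *Tet2/3* DKO (median 0.66). The difference was -0.50 (two-sided exact permutation p = 0.000583, the smallest that splits of 13 libraries can give, adjusted p = 0.00974 over 284 hairpins). Of all 284 hairpins 8.8% had a lower ratio by this test. It was past the threshold in all 13 comparisons that left out 1 mouse.

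For mir-1981 the ratio was higher, with values from -3.36 to -2.18 for WT (median -2.85) and from -2.50 to -1.73 for *Tet2/3* DKO (median -2.15). The groups overlapped, and the difference was 0.77 (exact permutation p = 0.00466, adjusted p = 0.0358), where 7.75% of hairpins had a higher ratio. It passed in 4 of the 13 comparisons without 1 mouse (without WT replicate 2 or 3 or *Tet2/3* DKO replicate 3 or 5, over all 13 from 0.67 to 0.90). For mir-877 the difference of -0.87 did not pass (exact permutation p = 0.0251, adjusted p = 0.100), but it was -1.11 with an adjusted p of 0.0326 without WT replicate 1 (exact permutation test). For mir-320 it was 0.34 (exact permutation p = 0.0186, adjusted p = 0.0854) and for mir-484 it was -0.06 (exact permutation p = 0.444, adjusted p = 0.675).

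**Figure D4:**
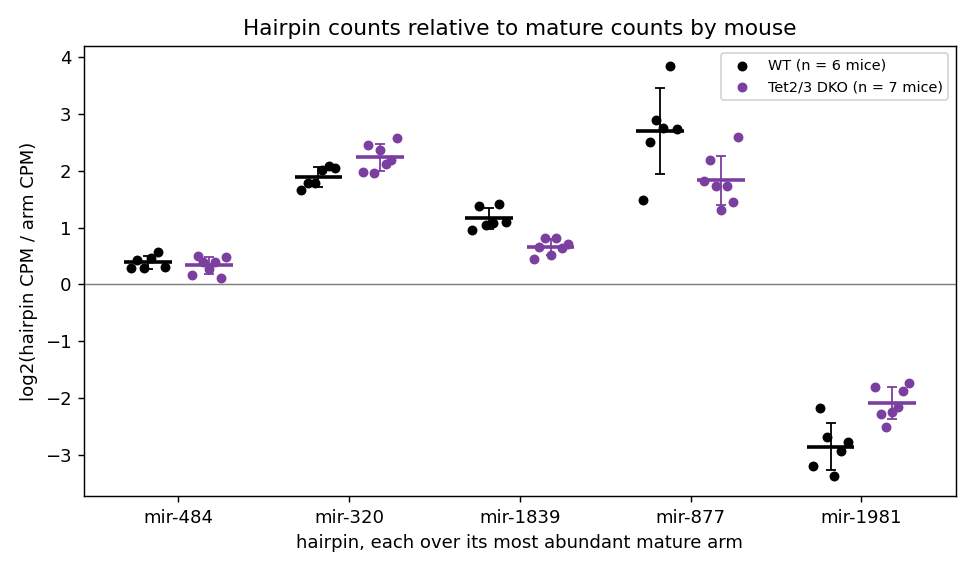
Log2 ratio of hairpin CPM to CPM of the most abundant mature arm, 1 point per mouse, with the mean (wide bar) and SD, for WT (n = 6, black) and *Tet2/3* DKO (n = 7, purple). The mir-1839 points run from 0.96 to 1.41 in WT and from 0.44 to 0.82 in *Tet2/3* DKO. Those of mir-484 lie on the same level in both genotypes, and mir-1981 is the one member below 0. CPM is scaled within each table, so 0 does not stand for equal numbers of hairpin and arm reads.

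Another scaling shifted all members of a table by nearly the same amount. Relative to the median of all tested hairpins, mir-320 was at -0.31 with RLE scaling, -0.30 with library size only and -0.32 with upper-quartile scaling. mir-1981 was at 0.75 above it with RLE and with upper-quartile scaling and at 0.74 with library size only. The signs of mir-320, mir-1839 and mir-877 hairpins against 0 therefore depend on the scaling, whereas mir-484, miR-484 and miR-320-3p were below 0 and mir-1981, miR-877-5p and miR-1839-5p above 0 under all 4 scalings.

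**Figure D5:**
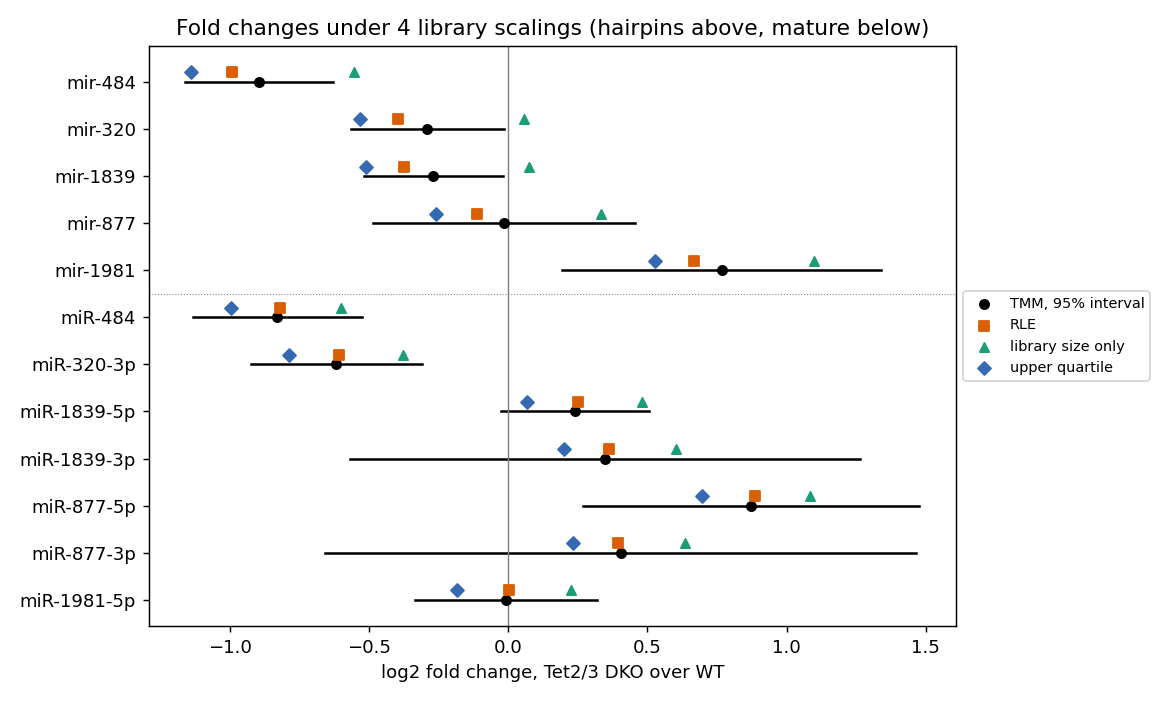
Log2 fold change (*Tet2/3* DKO over WT) of the 12 tested member sequences with TMM scaling (black, with its 95% interval) and with 3 other scalings (coloured). Library size only places the hairpins mir-320, mir-1839 and mir-877 above 0, at 0.06, 0.08 and 0.33.

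Other miRNAs made by unusual routes gave some lower and no higher calls. Of mir-664 and mir-1291 (snoRNA-derived), mir-1983 (tRNA-derived), mir-1224 (mirtron) and mir-451a (cut by Drosha but not by Dicer), 4 were tested and 2 fell. These were mir-664 (-0.95) and mir-451a (-3.31), the latter a marker of red cells, while mir-1291 (0.21) and mir-1983 (0.20) did not pass the test and mir-1224 had too few counts. Of the 185 hairpins from mir-6896 to mir-7094, many of them annotated as mirtrons, 7 were tested, 4 were lower and 0 higher, with a median of -0.75. Of 13 canonical hairpins of lymphocytes, from mir-142a to the mir-15 and mir-16 genes, 4 were lower and 6 higher (edgeR's quasi-likelihood test in each case). Over all tested hairpins 27.1% were lower and 32.6% higher.

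Across the 13 libraries, the tested hairpin whose log2 CPM was most like that of mir-484 was mir-423 (Pearson's r = 0.951 and 0.672 for deviations from the genotype means). For mir-320 it was mir-3535 (0.792 and 0.694), for mir-1839 mir-378d (0.822 and 0.706), for mir-1981 mir-212 (0.855 and 0.687) and for mir-877 mir-5100 (0.604 and 0.602). These are descriptions over libraries that share genotype, scaling and depth, and each is the highest value over the other tested hairpins.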

How the data were processed

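The authors deposited 2 tables of raw counts, 1 of reads per hairpin and 1 of reads per mature miRNA, with 1 column for each of 13 mice. They were made with the nf-core/smrnaseq pipeline (2.2.4) at default parameters, and the genome build was mm10 per the labels. By its documented design, that pipeline aligns reads to mature sequences first and the remaining reads to hairpins. The miRBase release is not given in the sources used here, nor is it stated how reads on near-identical hairpins were shared. All columns were used (0 left out). Members, marker lists and comparison lists were chosen by name, with earlier results of these data known. All members are named.

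Each whole table was fitted with edgeR 4.0.16 in R 4.3.3 (filterByExpr with a count minimum of 10 and a total minimum of 15, TMM, robust quasi-likelihood test, genotype only), with Benjamini-Hochberg adjustment over all tested features. Steps were tested on simulated data. Ratios of arms, and of hairpin CPM to the most abundant arm, were log2 values with 0.5 added to counts. They were compared by two-sided exact permutation tests on the absolute difference of means (exact enumeration over the 13 mice), adjusted over all pairs. Alternatives were other scalings, filters, DESeq2 1.42.0, limma-voom (limma 3.58.1), replicate number as a block, and each mouse left out. A fit without the shallowest library of each genotype (replicate 1 of WT, replicate 7 of *Tet2/3* DKO) was added after seeing the data. Libraries of the same genotype differed by more than sampling noise (chi-square per degree of freedom of at least 15.0 for hairpins and 20.2 for mature miRNAs). Sequences are from RefSeq (GRCm38.p6), and positions and introns from that table and the GENCODE annotation of GRCm38.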

Additional observations from a re-analysis of the deposited data

Results flagged for a closer look

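Of 38 groups of libraries checked (the values of a tested member or ratio in 1 genotype), 4 had a library far from the others, where chance gives about 1 in 20, that is 2 of 38. miR-877-3p was at a log2 CPM of -1.09 in WT replicate 1, where the next lowest WT library was at 2.09. miR-1839-3p was at 1.42 in *Tet2/3* DKO replicate 3, with the next lowest at 2.60. The log2 ratio of miR-1839 5p to 3p counts was 8.47 in WT replicate 1, with 6.88 as the next highest WT value, and 7.60 in *Tet2/3* DKO replicate 3, with 6.62 as the next highest. These libraries held 0, 7, 1 and 7 counts of the 3p arm concerned, and WT replicate 1 was the shallowest WT library.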

How the results depend on the processing

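Calls for mir-484, miR-484, miR-320-3p and miR-877-5p were the same in all 22 alternatives of each. Over 19 named results and 389 alternative values, 319 kept direction and side of the threshold, 28 lost the call, 16 gained one and 26 changed sign. Where no value shows it, the cause was not tested. Member hairpins called lower (2) numbered 1 with library size only and 1 when every hairpin with a count was fitted, 3 (with mir-320) under RLE, upper-quartile scaling, at least 10 counts in every library, DESeq2 and limma-voom, and 1 to 3 when 1 mouse was left out. Those called higher (1) numbered 0 with upper-quartile scaling, 0 with at least 10 counts in every library (mir-1981 is then not tested) and 0 to 1 with 1 mouse left out. Mature members called higher (1) numbered 2 with library size only, 2 with the replicate block and 2 without both shallowest libraries, the added one being miR-1839-5p each time. Hairpin-to-arm ratios called higher (1) numbered 0 with an offset of 5, 0 with at least 10 counts in every library, 0 with the replicate block, 0 without both shallowest libraries, 2 with library size only and 0 to 1 with 1 mouse left out. Those called lower (1) numbered 0 with the block, 2 without both shallowest libraries and 1 to 2 with 1 mouse left out.

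With library size only the sign changed for the hairpins mir-320 (0.057), mir-1839 (0.075) and mir-877 (0.33), for miR-1981-5p (0.22) and for the mir-484 ratio (0.039). mir-877 was also above 0 with every hairpin fitted (0.16), with limma-voom (0.0062) and without single mice (-0.10 to 0.24 over all 13). miR-1981-5p was above 0 with RLE (0.0027), every sequence fitted (0.076), DESeq2 (0.024), limma-voom (0.050), the block (0.051) and without both shallowest libraries (0.0501). The miR-1839 arm ratio was 0.26 with an offset of 5, 0.16 without both shallowest libraries and -0.38 to 0.10 with 1 mouse left out, and that of miR-877 was -0.28 to 0.95. An arm ratio with at least 10 counts of the lesser arm in every library left no member.

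The labels do not say whether replicate numbers pair the mice, and the main fits did not pair them. Deviations of same-numbered libraries correlated at -0.05 to 0.34 for hairpins and 0.01 to 0.34 for mature miRNAs. Of the WT libraries 3 of 6 and 2 of 6 correlated best with their own number, which does not decide whether they are paired. With the replicate block, mir-320 was at -0.37 (adjusted p = 0.00586), mir-1839 at -0.22 (adjusted p = 0.0626) and miR-1839-5p at 0.29 (adjusted p = 0.0412, edgeR's quasi-likelihood test). Sign permutations of 6 pairs give only coarse p-values. After adjustment a ratio can then pass only if very many other ratios also reach the smallest p-value. The loss of ratio calls under the block therefore says little about stability. Depth limits the rarer members, such as mir-1981 with 9 to 30 and miR-1839-3p with 1 to 20 counts in a WT library.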
